A study of Homo sapiens with 4 samples.

Results

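The genes described here encode hydrolases and membrane proteins of the lysosome, with the transcription factors TFEB and TFE3. They were taken by gene symbol from a list of 41 names, which was drawn up with earlier results of these data known. All 41 were found among the 13036 genes of the series, each under a single gene identifier. RNA was sequenced from HCCLM3, a human hepatoma cell line, infected with a lentivirus that carried a control short hairpin RNA (shCtrl, 2 libraries) or a hairpin against KIAA1429 (shKIAA1429, 2 libraries). The cells of both groups were thus infected and hairpin-bearing, and differed by label only in the hairpin. The present symbol of KIAA1429 is VIRMA, and its product belongs to the complex that writes N6-methyladenosine on RNA. The comparison asked whether knockdown of VIRMA moved the RNA of lysosomal genes. Values are FPKM, in which the fragments of a transcript are divided by its length and by the library's total, and a gene's value is the sum over its listed transcripts. Nothing in the labels states that the 2 libraries of a group came from separate cultures, so p-values measure only the spread between these libraries, which may be technical.

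The lysosome is the acidic compartment in which cells break down lipids, glycans, glycogen and proteins. Its soluble hydrolases are made in the endoplasmic reticulum and are mostly sorted in the Golgi by mannose phosphate tags, while glycosylated membrane proteins line and protect its membrane and transporters carry the products out. TFEB and TFE3 are related transcription factors that enter the nucleus in starved or lysosome-stressed cells and bind an E-box type motif near the start of many lysosomal genes. In the liver, lysosomes are known for their part in autophagy and in the handling of cholesterol.

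The libraries were checked first. Summed FPKM ranged from 370253 to 390224 over the 4 libraries, and read depth is unknown. VIRMA was at 9.37 and 14.1 FPKM in shCtrl against 6.90 and 8.52 FPKM in shKIAA1429, for a log2 fold change of -0.53 (SE 0.24) that did not pass the test (limma adjusted p = 0.917). Both shKIAA1429 libraries thus lay below both shCtrl libraries, by a difference not larger than the spread between replicates. Of 15 hepatocyte and hepatoma markers, SERPINA1, KRT8 and KRT18 had a value, with a summed level of 2093 to 2211 FPKM, nearly all of it from the keratins. The secreted liver proteins among the markers, other than SERPINA1, had no value to analyse here. CD14 was the only one of 9 leukocyte markers with a value, at 2.68 to 4.12 FPKM, no endothelial marker had one, and 6 of 7 fibroblast markers summed to 122 to 133 FPKM.

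Lysosomal RNA was readily measured in these cells. The 41 genes had a median of 18.3 FPKM over the libraries, against 7.76 FPKM for the 11657 genes tested, whose 10th and 90th percentiles were 1.68 and 46.7 FPKM. Of the 41, 4 had a mean above 100 FPKM and 13 a mean below 10 FPKM. All 41 passed the filter on low levels (1 FPKM or more in 2 or more libraries), and 39 reached 1 FPKM in every library. ASAH1 reached it in shCtrl alone, and MANBA was at 0.70 FPKM in shKIAA1429 replicate 2. Together the genes held 0.626% of all FPKM in shCtrl replicate 1 and 0.532% in replicate 2, and 0.593% in shKIAA1429 replicate 1 and 0.474% in replicate 2, so that the groups overlapped in their total. In bulk RNA, fewer cells and less RNA per cell cannot be told apart.

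**Figure D1:**
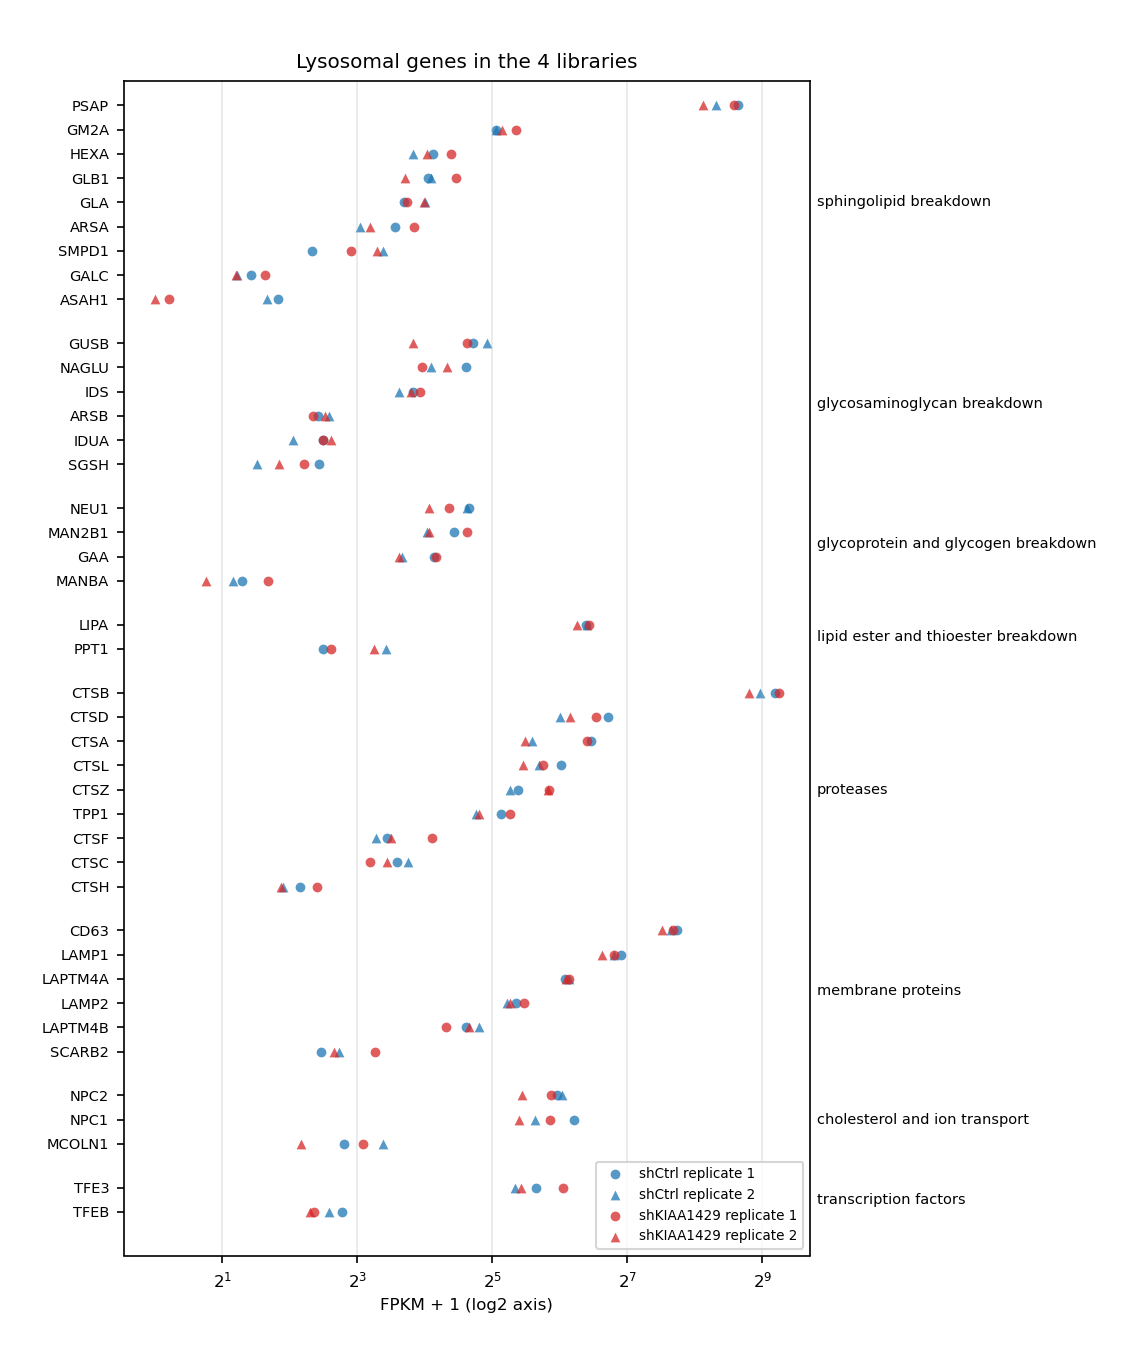
Level of each of the 41 lysosomal genes in each library, as FPKM + 1 on a log2 axis, ordered by role and by mean level. Blue points are shCtrl and red points shKIAA1429, circles are replicates 1 and triangles replicates 2. CTSB and PSAP are the most abundant, ASAH1 is the only gene with both red points far below both blue ones, and in many genes the circles lie to the right of the triangles.

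None of the 41 genes passed both thresholds, an adjusted p under 0.05 with a log2 fold change over 1 in size, where 0% of all genes tested passed. The smallest adjusted p over the 41 was 0.279 and over all genes 0.238 (limma, Benjamini-Hochberg over 11657 genes). At an unadjusted p under 0.05 there were 3 of the 41 (7.32%), ASAH1, CTSZ and NEU1, against 5.63% of all genes. A log2 fold change over 1 in size was reached by 1 gene, ASAH1 (2.44%), against 1.07% of all genes. Both shKIAA1429 libraries lay above both shCtrl libraries in 4 genes (9.76%), CTSF, CTSZ, GM2A and IDUA, against 16.9% of all genes. They lay below in 6 genes (14.6%), ASAH1, CTSC, GUSB, NEU1, NPC2 and TFEB, against 16.7% of all genes. The last 2 shares were under those of all genes, and the first 2 rested on 3 genes. ASAH1 passed the filter on low levels only through shCtrl, so its groups could not overlap. With 2 libraries against 2, the smallest two-sided p of an exact permutation test is 0.333, so no single gene could pass such a test.

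The fold changes of the list centred on 0. The log2 fold change was above 0 for 19 genes and below 0 for 22, with a median of -0.0064, against -0.0083 over all genes tested. The fold changes ran from -1.64 to 0.51, and 38 of the 41 lay within 0.5 of 0. For 33 genes the 95% interval of the log2 fold change lay within 1 of 0. The interval of ASAH1 lay wholly below -1, from -2.10 to -1.18. For SMPD1, CTSA, MCOLN1, GUSB, CTSF, PPT1 and SCARB2 the interval held 0 and reached past 1 in size, so a difference of that size was neither shown nor excluded by these libraries.

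**Figure D2:**
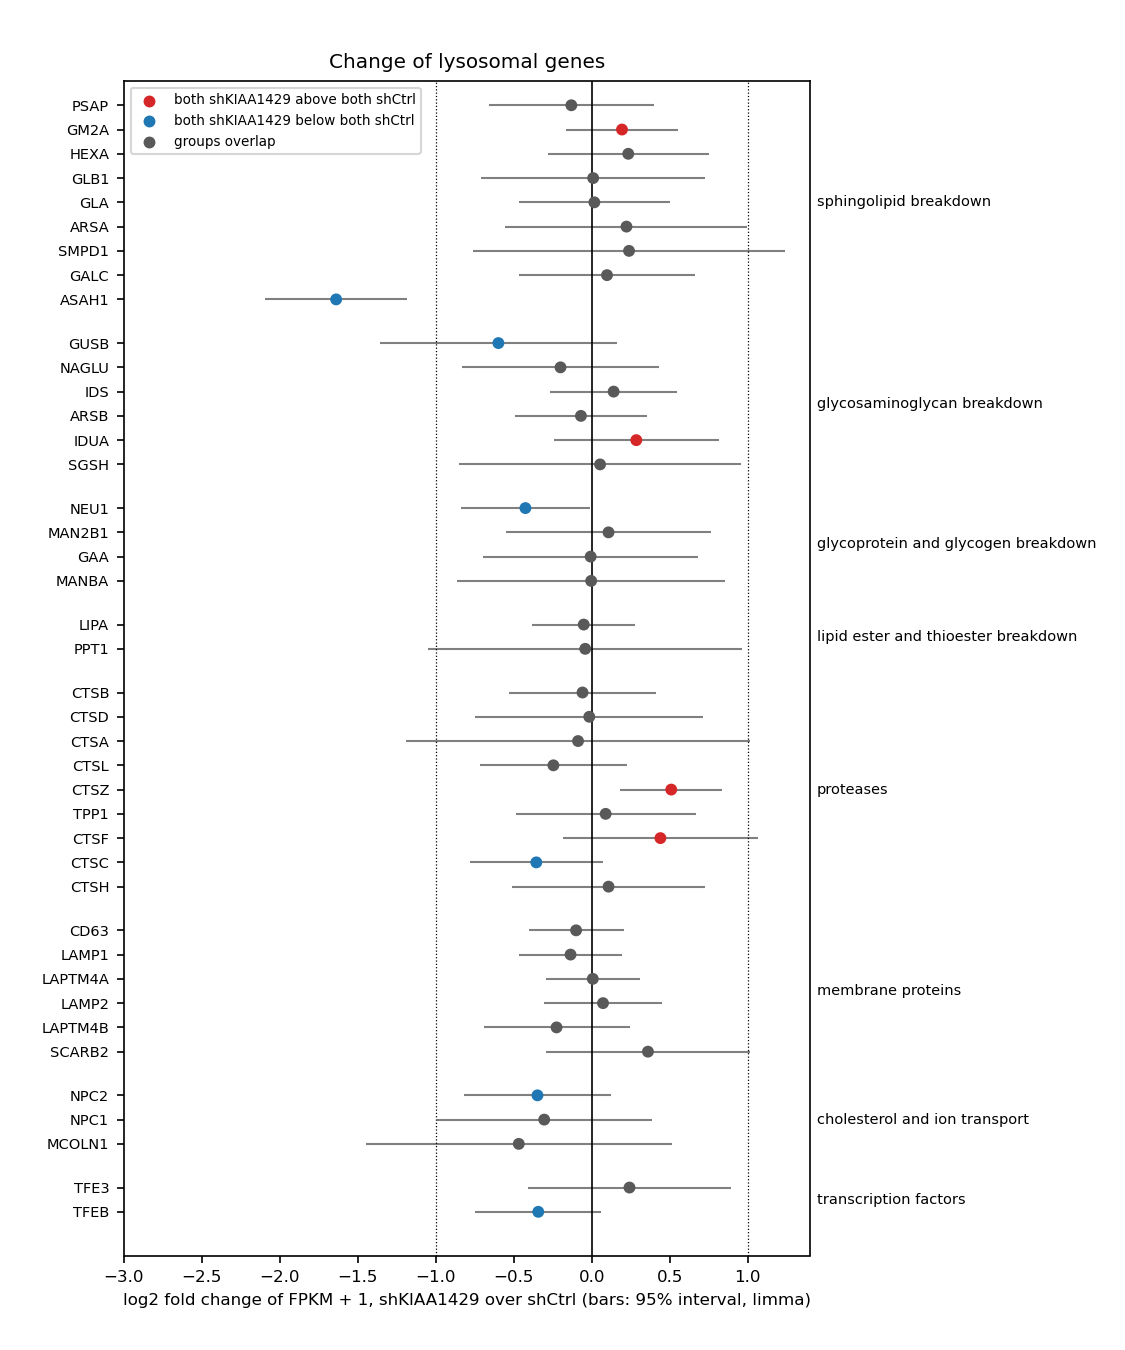
Log2 fold change of FPKM + 1, shKIAA1429 over shCtrl, for the 41 lysosomal genes, with the 95% interval from limma as a bar and dotted lines at -1 and 1. Red points are genes with both shKIAA1429 libraries above both shCtrl libraries, blue points genes with both below, and grey points genes whose groups overlap. ASAH1, at -1.64, is the only gene whose point lies beyond a dotted line, and the bars of most others cross 0.

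Genes of sphingolipid breakdown held the largest single difference. ASAH1, which encodes acid ceramidase, was at 2.53 and 2.17 FPKM in shCtrl against 0.15 and 0.00 FPKM in shKIAA1429. The groups were well apart, with a log2 fold change of -1.64 (SE 0.18, limma adjusted p = 0.279) that did not pass the adjusted threshold. ASAH1 passed the filter on low levels only through shCtrl, so its groups could not overlap, and the lack of overlap by itself adds no support. This value rested on 1 transcript, ASAH1-207, of 68 annotated for the gene, and the others were not analysed here. ASAH1 lies on the minus strand (chr8:17913501-17942507, GRCh37). Over all its annotated transcripts together it shares 615 exonic bases with an antisense gene, ASAH1-AS1, and the part within ASAH1-207 was not determined. ASAH1-207 is annotated with 746 exonic bases, 740 of them coding, which is not a whole number of codons. By this transcript alone, ASAH1 had the lowest mean of the list, 1.21 FPKM.

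The other genes of this role showed no such gap. GM2A, the activator protein that presents the ganglioside GM2 to its hydrolase, was at 32.1 and 32.2 FPKM in shCtrl against 39.7 and 34.4 FPKM in shKIAA1429, for a log2 fold change of 0.19 (SE 0.14). The groups did not overlap, but the shKIAA1429 libraries differed more from each other than the lower of them did from shCtrl. PSAP, the precursor of the saposins that lift lipids out of membranes, was the second most abundant gene of the list (chr10:73576055-73611008, GRCh37). It was at 400.1 and 316.7 FPKM in shCtrl against 380.9 and 277.5 FPKM in shKIAA1429. Its groups overlapped. Among the hydrolases themselves, log2 fold changes were 0.23 for HEXA, the alpha subunit of a hexosaminidase, 0.22 for the sulfatide sulfatase ARSA, 0.24 for the sphingomyelinase SMPD1, 0.10 for the galactosylceramidase GALC, 0.02 for the alpha-galactosidase GLA and 0.01 for the beta-galactosidase GLB1. In all of these the groups overlapped.

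Genes of glycosaminoglycan breakdown were split evenly, 3 above and 3 below 0. GUSB, which encodes beta-glucuronidase (chr7:65425671-65447202, GRCh37), was at 25.4 and 29.2 FPKM in shCtrl against 23.6 and 13.1 FPKM in shKIAA1429. The difference came mainly from shKIAA1429 replicate 2: the log2 fold change was -0.60 (SE 0.29) with all libraries and -0.20 without that library. The annotation holds 21 pseudogenes named after GUSB, and how reads shared with them were counted is not given in the sources used here. IDUA, the alpha-L-iduronidase, was at 4.59 and 3.13 FPKM in shCtrl against 4.62 and 5.11 FPKM in shKIAA1429. Its groups were barely apart, with a log2 fold change of 0.29 (SE 0.20) that was 0.07 without shCtrl replicate 2. The groups overlapped for the sulfatases ARSB (-0.07), IDS (0.14) and SGSH (0.05), and for the glucosaminidase NAGLU (-0.20), where the figures are log2 fold changes.

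Among genes of glycoprotein and glycogen breakdown, NEU1 was the only one whose groups were apart. NEU1, the lysosomal sialidase (chr6:31825436-31830682, GRCh37), was at 24.1 and 23.6 FPKM in shCtrl against 19.4 and 15.8 FPKM in shKIAA1429. The shCtrl libraries were close to each other, and the log2 fold change of -0.42 (SE 0.16, limma adjusted p = 0.884) did not pass. Log2 fold changes were -0.0064 for the acid alpha-glucosidase GAA, -0.0031 for the beta-mannosidase MANBA and 0.11 for the alpha-mannosidase MAN2B1, all with overlapping groups. For breakdown of lipid esters and thioesters, LIPA, the acid lipase that frees cholesterol from its esters, was at 82.7 and 83.2 FPKM in shCtrl against 85.3 and 75.1 FPKM in shKIAA1429. Its log2 fold change was -0.05 (SE 0.13), with overlapping groups. PPT1, a palmitoyl-protein thioesterase, was at 4.64 and 9.77 FPKM in shCtrl against 5.07 and 8.46 FPKM in shKIAA1429, so that each group held a low and a high library.

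The proteases included the most abundant gene of the list and the gene with the highest log2 fold change. CTSZ, a cathepsin that trims proteins from the carboxyl end (chr20:57560741-57583293, GRCh37), was at 40.7 and 37.2 FPKM in shCtrl against 56.2 and 55.6 FPKM in shKIAA1429. Libraries of a group were close and the groups well apart, with means of 39.0 ± 2.45 and 55.9 ± 0.413 FPKM (SD, n = 2). A log2 fold change of 0.51 (SE 0.13, 95% interval 0.18 to 0.84) had a limma adjusted p of 0.660 over all genes and did not pass. It varied little when any library was left out, from 0.45 to 0.57. Over its 32 annotated transcripts together, CTSZ shares 6136 exonic bases with NELFCD on the opposite strand. The CTSZ value rests on 1 transcript, CTSZ-201, with 1502 exonic bases, and how many of these are shared was not determined. Reads of overlapping genes cannot be told apart here.

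CTSF, a papain-like cathepsin, was at 9.84 and 8.68 FPKM in shCtrl against 16.1 and 10.3 FPKM in shKIAA1429. Its groups did not overlap, but the log2 fold change of 0.44 (SE 0.24) was 0.14 without shKIAA1429 replicate 1. CTSC, the dipeptidyl peptidase that activates serine proteases of immune cells, was at 11 and 12.4 FPKM in shCtrl against 8.14 and 9.79 FPKM in shKIAA1429, for a log2 fold change of -0.35 (SE 0.17). CTSC and CTSF thus differed in opposite directions, and neither passed the test.

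CTSB, a cathepsin with both endopeptidase and dipeptidase activity, led the list with a mean of 534.3 FPKM. It was at 584.5 and 501.1 FPKM in shCtrl against 605.8 and 445.7 FPKM in shKIAA1429, for a log2 fold change of -0.06 (SE 0.18). The aspartic protease CTSD was at 103.9 and 63.3 FPKM in shCtrl against 91.9 and 70.05 FPKM in shKIAA1429, for a log2 fold change of -0.02 (SE 0.28). In both genes the ranges of the groups overlapped. CTSA, a carboxypeptidase that also stabilises NEU1 and GLB1 in a complex, was at 87.4 and 47.2 FPKM in shCtrl against 83.8 and 43.5 FPKM in shKIAA1429. Here the libraries fell into a high and a low pair that each held 1 library of either group. Log2 fold changes were -0.25 for the endopeptidase CTSL, 0.11 for the aminopeptidase CTSH and 0.09 for the tripeptidyl peptidase TPP1, with overlapping groups.

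Among the membrane proteins the groups overlapped throughout. CD63, a tetraspanin of late endosomes, lysosomes and exosomes, was at 212.3 and 200.1 FPKM in shCtrl against 203.9 and 181.3 FPKM in shKIAA1429, for a log2 fold change of -0.10 (SE 0.12). LAMP1, a main glycoprotein of the lysosomal membrane, was at 118.5 and 110.7 FPKM in shCtrl against 111.0 and 97.8 FPKM in shKIAA1429, for a log2 fold change of -0.14 (SE 0.13). Both were slightly lower in mean with overlapping groups. LAMP2, its relative that also serves in autophagy, had a log2 fold change of 0.07 (95% interval -0.31 to 0.45). LAPTM4A, a small membrane protein with several spans, was the least variable of the 41, with a highest value 1.04 times its lowest. Its relative LAPTM4B, known from liver tumours, had a log2 fold change of -0.23, and SCARB2, the receptor that brings glucocerebrosidase to the lysosome, one of 0.36, with overlapping groups for both.

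The 3 genes of cholesterol and ion transport all had a log2 fold change below 0. NPC2, the soluble protein that hands cholesterol to NPC1 (chr14:74942895-74960880, GRCh37), was at 61.2 and 64.7 FPKM in shCtrl against 57.2 and 42.4 FPKM in shKIAA1429. The groups did not overlap, and the log2 fold change of -0.35 (SE 0.18, limma adjusted p = 0.936) was -0.14 without shKIAA1429 replicate 2. NPC1, the membrane transporter that exports cholesterol, was at 73.4 and 48.6 FPKM in shCtrl against 56.7 and 40.96 FPKM in shKIAA1429, for a log2 fold change of -0.30 (SE 0.27) with overlapping groups, and -0.01 without shCtrl replicate 1 or -0.07 without shKIAA1429 replicate 2. MCOLN1, a calcium channel of the lysosomal membrane, was at 5.97 and 9.45 FPKM in shCtrl against 7.52 and 3.47 FPKM in shKIAA1429, for a log2 fold change of -0.47 (SE 0.38) that was -0.0030 without shKIAA1429 replicate 2 and -0.17 without shCtrl replicate 2. The differences of NPC1 and MCOLN1 thus depended on single libraries.

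Of the transcription factors, TFEB (chr6:41651716-41703997, GRCh37) was at 5.80 and 4.96 FPKM in shCtrl against 4.10 and 3.94 FPKM in shKIAA1429. The groups were apart, with a log2 fold change of -0.34 (SE 0.16, limma adjusted p = 0.917) that did not pass. TFE3 (chrX:48886237-48900936, GRCh37) was far more abundant per length, at 49.3 and 39.3 FPKM in shCtrl against 64.9 and 42.1 FPKM in shKIAA1429. Its groups overlapped, and the log2 fold change was 0.24 (SE 0.25). RNA level says nothing of where these factors lay in the cell.

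The promoters were searched for the letters that these factors are known to bind. A promoter sequence from RefSeq, 250 bases before to 50 after the start of the gene, was matched for 31 of the 41 genes. The E-box CACGTG, read on both strands, was in 8 of the 31 (25.8%), against 7.43% of all 27305 promoters and 10.7% of the promoters of genes tested. The longer palindrome TCACGTGA, which contains the E-box, was in 4 of the 31 (12.9%), against 1.04% of all promoters and 2.13% of those of genes tested. GTCACGTG, the core of the motif known from lysosomal genes, was on either strand in 5 of the 31 (16.1%), against 2.53% and 4.69%. The genes with TCACGTGA were CTSA, GAA, LAMP1 and MCOLN1. Their windows are shown because they are the members that carry the full palindrome wholly upstream of the start of the gene, with the palindrome in capitals, 5′ to 3′ on the plus strand, which is the strand of all of these genes. Sequences are those of RefSeq, and were found without a mismatch in GRCh37 at chr20:44519937-44519966 for CTSA, chr17:78075292-78075321 and chr17:78075337-78075366 for the distal and proximal copy of GAA, chr13:113951514-113951543 for LAMP1 and chr19:7587457-7587486 for MCOLN1.
CTSA: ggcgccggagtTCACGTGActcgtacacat
GAA distal copy: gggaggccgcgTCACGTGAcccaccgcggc
GAA proximal copy: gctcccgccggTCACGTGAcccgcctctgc
LAMP1: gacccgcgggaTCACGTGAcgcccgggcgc
MCOLN1: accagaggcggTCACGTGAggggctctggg

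These copies were centred 22 bases before the start in CTSA, 73 and 28 bases in GAA, 25 bases in LAMP1 and 38 bases in MCOLN1. A further copy was centred 2 bases after the start in LAMP1 and 11 bases before it in MCOLN1, where the window would run past the start of the gene, and is not shown. The 8 genes with CACGTG, which were CD63, CTSA, CTSD, CTSF, GAA, LAMP1, MCOLN1 and NEU1, centred on a log2 fold change of -0.09 (median), with 1 above and 7 below 0. The 23 without it had a median of 0.02, with 14 above and 9 below 0. In both sets some signs changed when a library was left out, as for CTSA, CTSD and GAA with it and GLA, GLB1 and LAPTM4A without it. The difference was not tested, and a match of letters is no evidence of binding.

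The libraries within a group were compared next. In 20 of the 41 genes (48.8%) both libraries numbered 1 were above both libraries numbered 2, against 22% of all genes tested. These were ARSA, CD63, CTSA, CTSB, CTSD, CTSH, CTSL, GAA, GALC, HEXA, IDS, LAMP1, LAMP2, MAN2B1, MANBA, NPC1, PSAP, SGSH, TFE3 and TPP1, with hydrolases of every substrate except lipid esters and thioesters, 6 of the 9 proteases and 3 of the 6 membrane proteins. The reverse order held in 5 genes (12.2%), ARSB, GLA, LAPTM4B, PPT1 and SMPD1, against 25.1% of all genes. This arrangement was chosen after the values were seen, the labels do not say that a number marks a shared culture or day, and no test was made of it.

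The gaps between the libraries of a group were measured on the log2 scale. The median over the 41 genes of log2(FPKM + 1) in replicate 1 minus replicate 2 was 0.15 in shCtrl and 0.36 in shKIAA1429, while over all genes it was -0.00054 and -0.02. In size alone, the median difference between the shKIAA1429 libraries was 0.38 for the 41 genes and 0.21 for all genes, and between the shCtrl libraries 0.22 and 0.20. The median size of the log2 fold change between the groups, a difference of means and so by construction narrower than a gap between single libraries, was 0.14 for the 41 genes and 0.14 for all genes. CTSA, with 0.87 between the shCtrl libraries and 0.93 between the shKIAA1429 libraries, and CTSD, with 0.71 and 0.39 are examples. The mitochondrial share of summed FPKM was 9.44% and 10.6% in replicates 1 and 9.29% and 9.34% in replicates 2, and CD14 was at 4.02 and 4.12 FPKM in replicates 1 and at 2.72 and 2.68 FPKM in replicates 2. The part of either in the pattern was not tested.

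**Figure D3:**
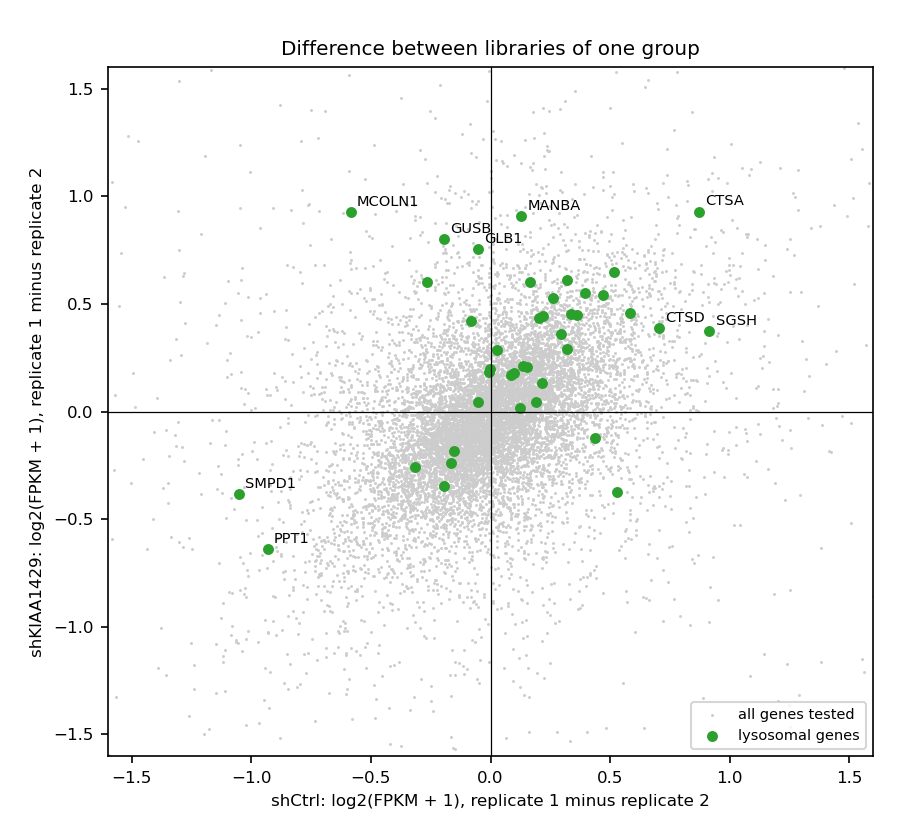
Difference of log2(FPKM + 1) between replicate 1 and replicate 2 within shCtrl (x axis) and within shKIAA1429 (y axis), for all genes tested (grey) and the 41 lysosomal genes (green), with the widest gaps named. Genes outside the axes are not drawn. The green points lie mostly in the upper right, with CTSA at 0.87 and 0.93, while the grey cloud is centred on 0.

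The transcripts of these genes were examined next. The 41 genes had 154 listed transcripts, of which 114 passed the filter. None passed both thresholds, where 0% of the 24996 transcripts tested passed, and the smallest adjusted p was 0.149 over the 114 and 0.111 over all (limma, adjusted over all transcripts). At an unadjusted p under 0.05 there were 10 (8.77%), against 6.28% of all transcripts. A log2 fold change over 1 in size was reached by 12 (10.5%), against 7.23%. Both shKIAA1429 libraries were above both shCtrl libraries in 17 (14.9%), against 16.7%, and below in 21 (18.4%), against 16.8%. Transcripts of a gene often share most of their bases, so fragments are divided between them by estimate, and their values are not independent. Of the 12, 8 had groups that did not overlap: ASAH1-207, described above, and transcripts of TFEB, NPC2, LIPA, GLB1, CD63 and NPC1. Choosing transcripts by a large fold change itself favours groups apart. The matching share among all transcripts over that size was not determined, so the 8 cannot be set against the shares above.

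The leading transcript of TFEB differed between the groups. TFEB-202 was at 3.57 and 3.54 FPKM in shCtrl against 0.19 and 0.16 FPKM in shKIAA1429, for a log2 fold change of -1.95 (SE 0.18, limma adjusted p = 0.149). TFEB-204 was at 0.65 and 0.37 FPKM in shCtrl against 3.04 and 2.86 FPKM in shKIAA1429, for a log2 fold change of 1.39 (SE 0.21, limma adjusted p = 0.277). Libraries of a group were close to each other in both transcripts, and the groups were well apart in opposite directions. Each transcript passed the filter (1 FPKM or more in 2 or more libraries) only through the group where it was high. Its groups therefore could not overlap, and the lack of overlap by itself adds no support. TFEB-202 made up 61.5% and 71.3% of the TFEB sum in shCtrl and 4.59% and 4.09% in shKIAA1429, and TFEB-204 made up 11.2% and 7.44% in shCtrl and 74.0% and 72.6% in shKIAA1429. By the GENCODE annotation the transcripts share 2074 exonic bases and the same 1428 coding bases, and differ at the 5′ end. TFEB-202 starts at chr6:41659214, in an exon that also holds the start of its coding sequence, while the first exon of TFEB-204, chr6:41703088-41703346, lies far upstream and is noncoding. Only 241 bases are particular to TFEB-202 and 259 to TFEB-204, so few bases tell them apart. The remaining transcripts, TFEB-203 and TFEB-210, stayed at or below 0.93 FPKM in every library.

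NPC2 showed the same kind of exchange. NPC2-201 was at 31.2 and 37.7 FPKM in shCtrl against 0.00 and 2.0 FPKM in shKIAA1429, for a log2 fold change of -4.35 (SE 0.61, limma adjusted p = 0.253). NPC2-207 was at 27.6 and 25.7 FPKM in shCtrl against 54.6 and 39.7 FPKM in shKIAA1429, for a log2 fold change of 0.78 (SE 0.21, limma adjusted p = 0.595). NPC2-207 was thus 45.2% and 39.6% of the NPC2 sum in shCtrl and 95.5% and 93.6% in shKIAA1429. In the annotation NPC2-207 holds all 796 exonic bases of NPC2-201 and 25 more, 9 of them coding, at the end of exon 4, which gives 151 codons against 148. The files also draw NPC2-207 as starting 207 bases further 5′ than the annotation used here. The junction after exon 4 is shown because it is the only coding difference between the transcripts, 5′ to 3′ in the direction of transcription (minus strand of GRCh37), with the added bases in capitals. The part from exon 4 lies at chr14:74947405-74947425 in NPC2-207 and at chr14:74947414-74947425 in NPC2-201.
NPC2-207: tgggaaatcccaGTACAGATCgtttctcat
NPC2-201: tgggaaatcccagtttctcat

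**Figure D4:**
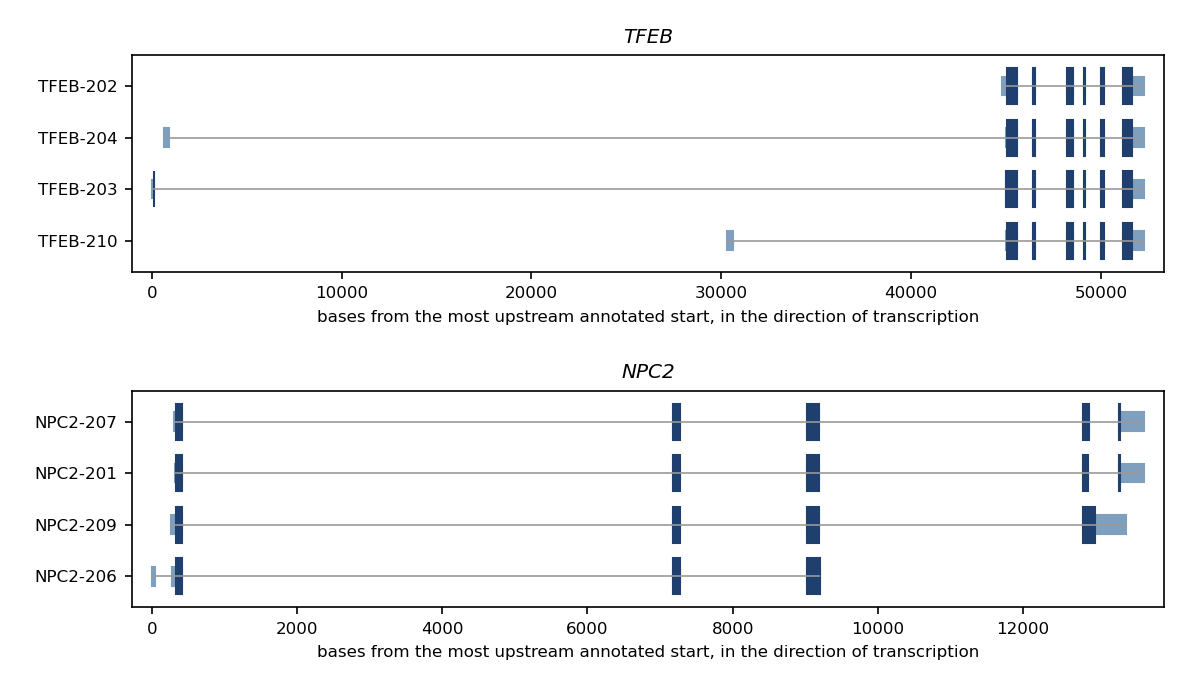
Annotated exons of the listed TFEB and NPC2 transcripts, in bases from the most upstream annotated start, read in the direction of transcription. Tall dark boxes are coding, low pale boxes noncoding, and lines introns. TFEB-202 and TFEB-204 have the same coding bases and differ in the first exon, TFEB-203 begins its coding part in an upstream exon, and NPC2-201 and NPC2-207 differ by 9 coding bases in the fourth exon, too few to see at this scale.

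In other genes the exchange did not follow the groups. LIPA-205 was at 62.2, 62.3 and 63.2 FPKM in both shCtrl libraries and shKIAA1429 replicate 1, and at 0.00 FPKM in shKIAA1429 replicate 2. LIPA-202 was at 18.4, 18.4 and 19.6 FPKM in the same 3 libraries and at 73.9 FPKM in the last, while the LIPA sum stayed between 75.1 and 85.3 FPKM. A single library thus set the fold changes of these transcripts, although the groups of LIPA-202 did not overlap. LIPA-205 lacks 348 of the coding bases of LIPA-202. CTSB behaved alike: CTSB-232 was at 458.0, 458.4 and 353.8 FPKM in shCtrl replicate 1 and both shKIAA1429 libraries and at 0.21 FPKM in shCtrl replicate 2, where CTSB-228 took its place at 391.3 FPKM. These CTSB transcripts share 1977 exonic bases and the same 1017 coding bases. GUSB-202 was at 15.04 FPKM in shCtrl replicate 2 and at 0.00 FPKM in the other libraries.

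The leading transcript of GLB1 was 1 of 3, depending on the library. GLB1-203 was at 2.0 and 1.54 FPKM in shCtrl against 3.68 and 8.74 FPKM in shKIAA1429, for a log2 fold change of 1.29 (SE 0.43), with the groups apart. GLB1-202 was at 4.99 and 10.4 FPKM in shCtrl against 12.5 and 0.18 FPKM in shKIAA1429, so that its libraries disagreed within shKIAA1429. CD63-208, a minor transcript, was at 18.4 and 9.05 FPKM in shCtrl against 8.05 and 1.68 FPKM in shKIAA1429, for a log2 fold change of -1.50 (SE 0.74). NPC1-210 was at 15.9 and 4.58 FPKM in shCtrl against 4.44 and 0.82 FPKM in shKIAA1429, for a log2 fold change of -1.63 (SE 0.84). In CD63-208 and NPC1-210 the groups were apart by less than the libraries of a group were.

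**Figure D5:**
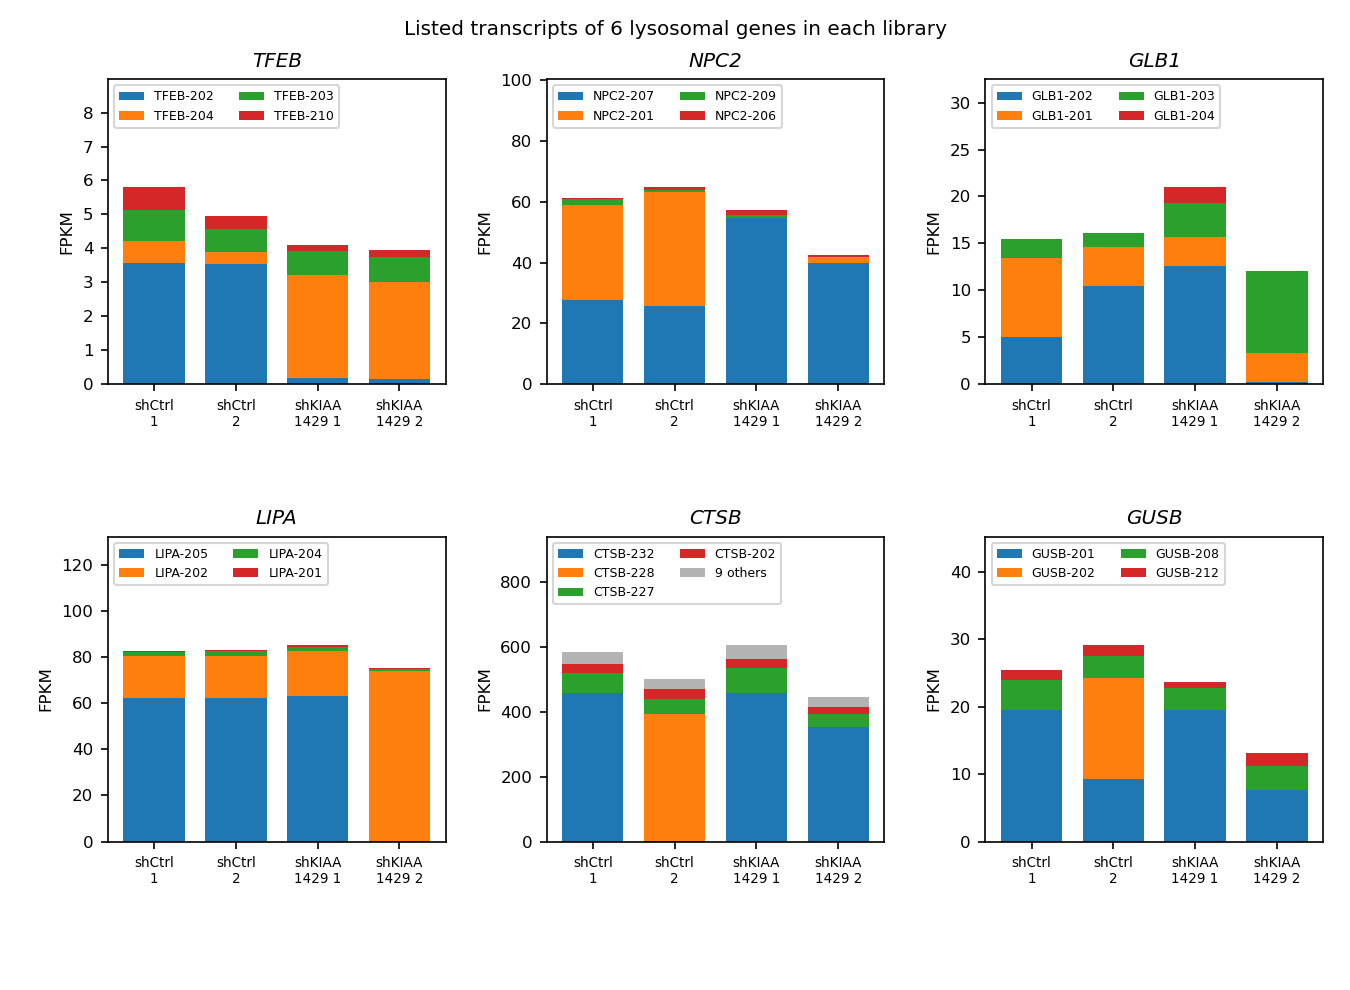
FPKM of the listed transcripts of TFEB, NPC2, GLB1, LIPA, CTSB and GUSB in each library, stacked to the gene's sum. In TFEB and NPC2 the leading transcript is the same within each group and differs between the groups, while in LIPA and CTSB a single library holds another leading transcript at nearly the same sum.

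Of the 41 genes, 8 had 1 listed transcript, and among the 33 with several the leading transcript was the same in all libraries in 18 and differed in 15. Of all 8503 genes tested with several transcripts it differed in 41.4%. Only in TFEB and NPC2 among the 15, thus in 2 of the 33 (6.06%), was it shared within each group and different between the groups, against 3.27% of the 8503 genes. The 15 included PSAP, CTSA, CTSD, IDUA, LAMP2, MAN2B1, PPT1, SCARB2 and SMPD1, whose leading transcripts differed also between libraries of a group.

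Other genes of the lysosome were taken from wider lists, and 0 genes of any list passed both thresholds (limma). Of 17 subunits of the vacuolar ATPase, the pump that acidifies the lysosome, 7 were above and 10 below 0, with a median log2 fold change of -0.03. At an unadjusted p under 0.05 there was 1 of the 17, where 5.63% of all genes had such a p. Groups were apart in 1 above (5.88%) and 3 below (17.6%), against 16.9% and 16.7% of all genes. ATP6V0D1, a subunit of the membrane sector, was at 35.3 and 42.4 FPKM in shCtrl against 77.2 and 77.2 FPKM in shKIAA1429, for a log2 fold change of 0.98 (SE 0.14, limma adjusted p = 0.367). ATP6V1D, a subunit of the central stalk, had the lowest of the list among those with groups apart, a log2 fold change of -0.39 (SE 0.17) that was -0.23 without shKIAA1429 replicate 1.

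Of 15 genes for sorting enzymes to the lysosome, 7 were above and 8 below 0, with a median of -0.0073. Groups were apart in 2 above (13.3%) and 2 below (13.3%), against 16.9% and 16.7% of all genes. SORT1, the sorting receptor sortilin, was at 14.8 and 14.5 FPKM in shCtrl against 6.62 and 7.44 FPKM in shKIAA1429, for a log2 fold change of -0.96 (SE 0.14, limma adjusted p = 0.367). CLN6, a protein of the endoplasmic reticulum needed for enzyme export, was at 1.16 and 1.14 FPKM in shCtrl against 1.81 and 4.22 FPKM in shKIAA1429, for a log2 fold change of 0.83 (SE 0.32) that was 0.39 without shKIAA1429 replicate 2. Libraries of a group were close for SORT1 and far apart within shKIAA1429 for CLN6.

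Of 28 genes listed as other lysosomal enzymes 25 were tested, 12 above and 13 below 0 with a median of -0.0082. Groups were apart in 2 above (8%) and 8 below (32%), against 16.9% and 16.7% of all genes. The 8 include GUSBP1, a pseudogene of GUSB and not an enzyme. HGSNAT, which acetylates heparan sulfate during its breakdown, had the highest log2 fold change among those with groups apart, 0.43 (SE 0.19), and 0.27 without shKIAA1429 replicate 1. The phospholipase PLA2G15 had the lowest, -0.93 (SE 0.38), from 9.08 and 3.80 FPKM in shCtrl to 2.48 and 2.82 FPKM in shKIAA1429, and it was -0.40 without shCtrl replicate 1. Of 28 names of other membrane proteins 24 were tested, 14 above and 10 below 0 with a median of 0.11. CLN7 and MFSD8 among the 28 name the same gene, which had no value. In this list groups were apart in 6 above (25%) and 2 below (8.33%), against the same shares of all genes, 16.9% and 16.7%. SLC38A9, an amino acid transporter that signals to mTORC1, was at 1.35 and 2.04 FPKM in shCtrl against 3.12 and 2.72 FPKM in shKIAA1429, for a log2 fold change of 0.55 (SE 0.20). It was 0.37 without shCtrl replicate 1. MFSD12, a cysteine importer, had one of -0.28 (SE 0.16), and of -0.14 without shKIAA1429 replicate 2. Another 18 genes encode subunits of the BORC, HOPS and Ragulator complexes, which place, fuse and signal from lysosomes, or their partners RRAGA, RRAGC and FLCN. Of the 18, 5 were above and 13 below 0 with a median of -0.08. Groups were apart in 0 above and 5 below (27.8%), where all genes gave 16.9% and 16.7%. None of these shares was tested. Among the 5, LAMTOR5 had the lowest log2 fold change, -0.29 (SE 0.17), which was -0.13 without shKIAA1429 replicate 2.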

How the data were processed

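RNA of 4 HCCLM3 libraries was compared, 2 shCtrl and 2 shKIAA1429, grouped by sample title. The study's methods describe alignment and counts per gene. The deposited files hold another measure, FPKM per GENCODE transcript at GRCh37 positions, for which the tool the authors used is not given in the sources used here. The submitters' processing notes name Bowtie2 2.1.0. Every listed transcript exceeded 0.5 FPKM in at least 1 library (lowest maximum 0.504). Depth is unknown, so no counting error is given. A spreadsheet had made dates of gene names in some files. This touched 108 listed transcripts, a count that includes any without a name. Names were taken from a file where the same transcript kept its name, if there was one.

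FPKM was summed per gene. Genes with at least 1 FPKM in at least 2 libraries were kept (11657 genes, 24996 transcripts), and the groups were compared on log2(FPKM + 1), on which changes of low genes appear too small, by limma 3.58.1 run in R 4.3.3 (lmFit, eBayes with trend, two-sided, adjusted by Benjamini-Hochberg over all features). The step was tried on simulated independent values, with changes well over 1 on the log2 scale added to 200 genes. It recovered 176 of these and made 11 false calls. Smaller changes were not simulated. Values were FPKM, so no count test was run. The 41 genes and the wider lists were chosen with earlier results of these data known. Of the 41, values are given for every library for genes whose groups do not overlap, the 5 most abundant and both transcription factors. The same holds for genes with a non-overlapping transcript over log2 fold change 1. From each wider list the largest rise and fall with groups apart are given. Of these, ATP6V1D, HGSNAT, MFSD12 and LAMTOR5 are given by fold change alone. The other genes shown by library (PPT1, CTSA, MCOLN1 and transcripts of CTSB and GUSB) were chosen after their values were seen. Exon structures are from GENCODE 44 lifted to GRCh37, and promoters from RefSeq (GRCh38.p14), located in GRCh37 by exact match. Alternatives were other scalings, filters and pseudocounts, coding transcripts only, a robust variance, a replicate block and leaving out each library. Figures used matplotlib 3.10.9 in Python 3.11.15.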

Additional observations from a re-analysis of the deposited data

How the results depend on the processing

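No lysosomal gene passed both thresholds under any alternative run, nor did any of their transcripts with another pseudocount, a stricter filter or a replicate block, and over all genes 1 passed without shCtrl replicate 1, so that leaving out a library gave 0 to 1. With a log2 fold change over 1 as the only criterion, 125 genes and 1 lysosomal gene passed. The median of the 41 genes ranged from -0.14 to 0.16 when a library was left out. Under every alternative it moved by less than its SD between replicates (0.20). That SD is built from the same gaps between libraries that leaving out a library acts on. A fit without a library could therefore hardly exceed it, and the comparison is no test of stability. The same sign was kept throughout by 19 genes. With protein coding transcripts only, the log2 fold change was -0.27 for GLA, 0.0013 for GAA and 0.19 for CTSD, opposite in sign to the values reported. With equal sums after leaving out mitochondrial and the 2 most abundant transcripts it was -0.00091 for GLB1 and -0.0038 for LAPTM4A, and with upper quartile scaling 0.0045 for GAA and 0.0057 for MANBA. The cause of these changes was not tested.

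In 22 genes the sign changed when a library was left out. The log2 fold change then ran from -0.14 to 0.18 for GLA, -0.37 to 0.39 for GLB1, -0.10 to 0.55 for ARSA, -0.12 to 0.32 for GALC, -0.29 to 0.77 for SMPD1, -0.36 to 0.10 for PSAP, -0.16 to 0.023 for ARSB, -0.46 to 0.064 for NAGLU, -0.40 to 0.51 for SGSH, -0.28 to 0.26 for GAA, -0.46 to 0.45 for MANBA and -0.17 to 0.38 for MAN2B1. It ran from -0.14 to 0.040 for LIPA, -0.51 to 0.42 for PPT1, -0.55 to 0.38 for CTSA, -0.28 to 0.16 for CTSB, -0.37 to 0.34 for CTSD, -0.16 to 0.37 for CTSH, -0.13 to 0.31 for TPP1, -0.032 to 0.18 for LAMP2, -0.018 to 0.032 for LAPTM4A and -0.064 to 0.55 for TFE3.

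The replicate numbers do not pair the samples by label. Deviations of same-numbered libraries from their group means correlated at 0.324 over all genes, with 2 pairs. With the replicate number as a block, limma called 0 genes and 0 lysosomal genes past both thresholds, 1269 genes and 6 lysosomal genes had an unadjusted p under 0.05, and the smallest adjusted p was 0.303. Depth is unknown, 2 libraries a group limit every comparison, and transcript values rest on estimates that divided shared fragments.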
